A study of Mus musculus with 19 samples.

Results

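Genes of the extracellular matrix and of matrix remodelling were followed in mouse hearts across 2 genotypes and 2 diets. They were taken as every array probe whose gene symbol in the deposited table names a collagen chain, lysyl oxidase, matrix metalloproteinase, TIMP, ADAMTS or ADAMTS-like protein, laminin, fibrillin, fibulin or TGF-beta ligand, or is Fn1, Sparc, Sparcl1, Postn, Bgn, Dcn, Lum or Ctgf. This gave 234 of 46643 probes, for 125 gene symbols. Each of 19 FVB/N mice gave total RNA of the heart, read on 1 Illumina bead array. Wild-type (WT) mice on the normal diet numbered 5, WT mice on the high fat diet 4, and CCM mice 5 on each diet. CCM is the labels' name for transgenic mice in which the circadian clock works in all cells except cardiomyocytes. CCM mice are known to carry a dominant-negative CLOCK protein driven by a cardiomyocyte promoter, so fibroblasts, vessel cells and blood cells keep their own clock. All animals had eaten their diet freely for 16 weeks, and every heart was collected at ZT 18, in the active phase of the day. No other time of day was sampled, so the level of a rhythmic gene here cannot be separated from its phase. The labels give no age or sex.

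The cardiac matrix is a network of fibrillar collagens that ties muscle cells together, laid over basement membranes of type IV collagen and laminin that wrap each cardiomyocyte and capillary. Fibroblasts make most of the fibrillar collagens, while basement membrane chains also come from endothelial cells and cardiomyocytes. TGF-beta ligands drive matrix synthesis, lysyl oxidases cross-link the fibres, metalloproteinases and ADAMTS enzymes cut them, and TIMPs inhibit that cutting.

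Values are log2 normalized signals, on which a difference of 1 is a doubling, and SE is the standard error of a fitted difference. Arrays detected 17117 to 18731 probes each, and arrays correlated between 0.963 and 0.993 within groups and between 0.966 and 0.994 across groups. No array went against its genotype label: the Clock probe with the most signal averaged 7.53 ± 0.87 (SD, n = 9) over WT arrays and 15.28 ± 0.18 (SD, n = 10) over CCM arrays, without overlap. All 6 cardiomyocyte markers were measured, and none of their 10 probes was called in any comparison (limma, 0 or 1 at an unadjusted p under 0.05, median genotype difference 0.01). Their summed signal ran from 180813 to 193294 in WT and from 185074 to 189806 in CCM hearts on the normal diet, and from 181093 to 191542 and from 176877 to 194638 on the high fat diet.

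Of the 234 matrix probes, 116 probes of 81 genes were detected on at least 4 arrays and were tested. This is 49.6% of the matrix probes, against 42.5% of all probes. On all 19 arrays 74 probes of 58 genes were detected, and 111 probes were detected on none. A further 7 were detected on 1 to 3 arrays and were not tested. Every TIMP and TGF-beta ligand on the array had a tested probe, as did the proteoglycans Bgn, Dcn and Lum. So did 7 of 8 basement membrane collagen genes and 9 of 11 laminin genes. Only 8 of 27 probes for fibrillar collagens were tested. Of the other 19, the cartilage collagen Col2a1 and Col11a1, Col11a2, Col24a1 and Col5a3 account for 14 and have no tested probe, and 5 are dim probes of Col1a1, Col5a2 and Col27a1, which have a tested one. The 44 genes without a tested probe also included Loxl2, Loxl3 and Loxl4, the laminin chains Lama1 and Lamc3, the macrophage and neutrophil proteases Mmp12 and Mmp8, and the aggrecan-cutting enzymes Adamts4 and Adamts5. Between groups, a difference in these genes was not detectable at this signal over background. Mmp12 was detected in 1 animal: probe ILMN_1250421 read 8.59 in CCM high fat replicate 3 and 4.79 to 5.11 in the other animals, and its other probe was detected in none. The symbol rule also took in Col4a3bp, a ceramide transporter now named Cert1, with 4 tested probes, and Loxhd1, with none. Neither is a matrix protein.

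The first question was how the matrix genes of CCM hearts differed from those of WT hearts, over both diets. Tgfb2, Col4a5, Col6a1 and Loxl1 were higher in CCM hearts, by 0.29 to 0.58 log2, and Lamb3 was lower by 0.59. These are 6 of 116 probes at an adjusted p under 0.05, or 5.17%, beside 4.15% of all 19840 tested probes (limma, Benjamini-Hochberg over all probes). By direction, 5 of the 116 probes rose, beside 1.98% of all probes, and 1 fell, beside 2.17%. The share of matrix probes called in either direction was close to that of the whole array. By direction, 5 matrix calls were higher, 2 of them probes of Tgfb2, and 1 was lower, beside 393 higher and 430 lower over all probes. This split rests on 6 probes, and whether it differs from that of all probes was not tested. At an unadjusted p under 0.05 stood 26 matrix probes (22.4%, against 13.1% of all), of which 22 were higher in CCM. Across the 116 probes the median difference was 0.08, with 81 positive (69.8%), beside 0.0038 and 51.4% over all probes. In whole hearts, more cells of a type and more RNA per cell cannot be told apart.

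**Figure D1:**
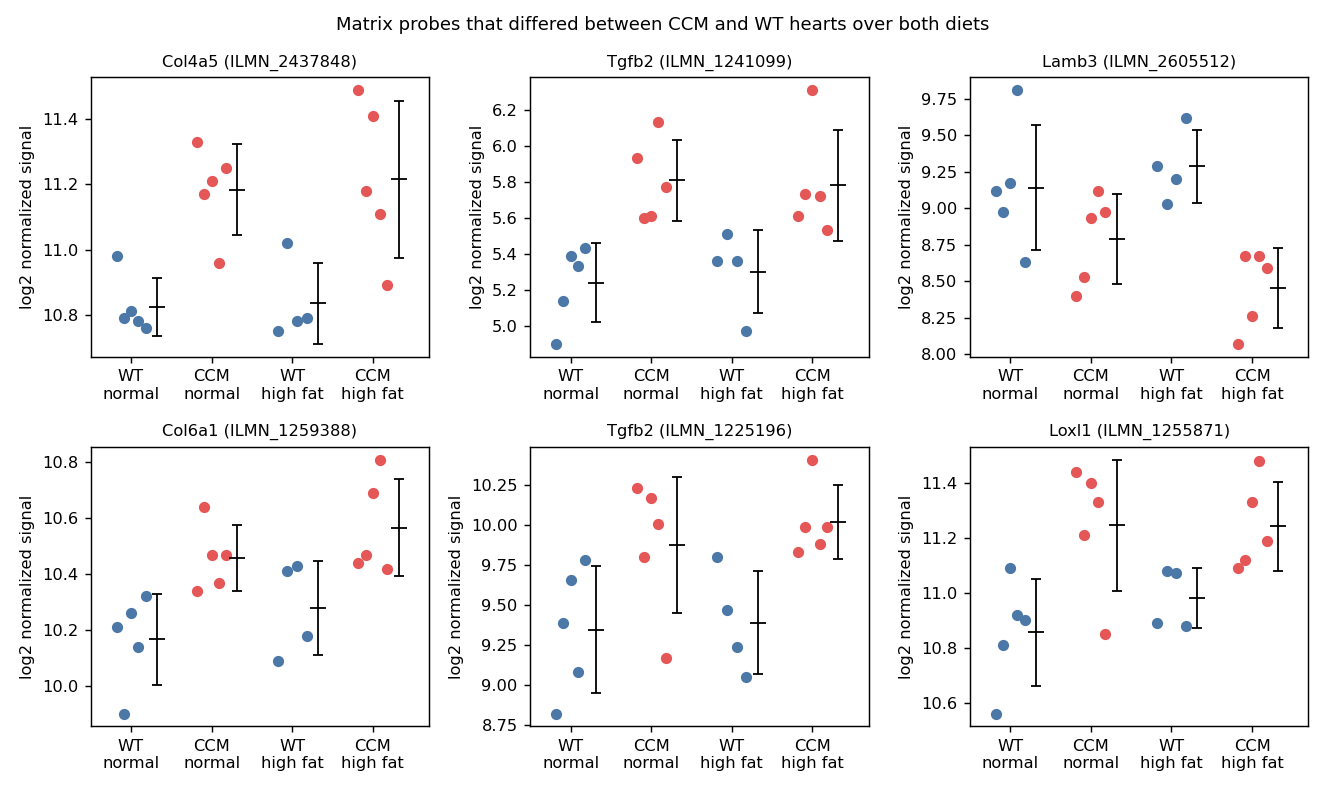
Log2 normalized signal of the 6 matrix probes that differed between CCM (red) and WT (blue) hearts over both diets, 1 point per animal, with bars for the group mean and SD. The 10 CCM points of the Tgfb2 probe ILMN_1241099 start at 5.53, above the highest WT point at 5.51, while the groups overlap in the other panels. Most WT points of that probe were not detected above background.

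Tgfb2 encodes a TGF-beta ligand with a major part in heart development. Its probe ILMN_1241099 read 4.90, 5.14, 5.39, 5.33 and 5.43 in WT hearts on the normal diet and 5.36, 5.51, 5.36 and 4.97 in WT hearts on the high fat diet. In CCM hearts it read 5.93, 5.60, 5.61, 6.13 and 5.77 on the normal diet and 5.61, 5.73, 6.31, 5.72 and 5.53 on the high fat diet. Every CCM heart was above every WT heart. The probe was dim: it was detected in 10 of 10 CCM but in 2 of 9 WT hearts, and differences of dim probes are understated on this scale. It reached the filter of at least 4 arrays through the CCM hearts, where it is high. Most of the WT values it is set against were not detected above background, so its test is not independent of the filter. The difference was 0.52 ± 0.11 (SE, adjusted p = 0.00737 by limma).

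The brighter Tgfb2 probe, ILMN_1225196, was detected on every array. It read 8.82, 9.39, 9.66, 9.08 and 9.78 in WT hearts on the normal diet, and 9.80, 9.47, 9.24 and 9.05 on the high fat diet. The CCM values were 10.23, 9.80, 10.17, 10.01 and 9.17, then 9.83, 9.99, 10.41, 9.88 and 9.99. The lowest CCM heart lay inside the WT range, 1 more equalled the highest WT heart at 9.80, and the other 8 were above it. The difference was 0.58 ± 0.15 (SE, adjusted p = 0.0334 by limma). This call was lost without any one of 11 animals, with a highest adjusted p of 0.0863 without WT high fat replicate 4. It was kept without CCM normal replicates 2 and 5, CCM high fat replicates 1, 4 and 5, WT high fat replicate 1 and WT normal replicates 3 and 5. The call of the dimmer probe was kept without any single animal, though most of its WT values were not detected above background.

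The related ligands did not pass. Tgfb3 was higher by 0.24 ± 0.11 (SE, adjusted p = 0.358), and Tgfb1, the ligand best known for driving fibrosis, gave -0.24 ± 0.36 (SE, adjusted p = 0.916). Tgfb1 varied widely, from 5.37 to 7.76 among WT and from 5.04 to 7.69 among CCM hearts. Its 95% interval ran from -0.99 to 0.51.

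The start regions of the genes that moved are shown here because the clock protein CLOCK and its partner BMAL1 bind E-boxes of the form CACGTG. The windows are RefSeq's for GRCm38.p6, from 250 bases before to 50 bases after the annotated start, and capitals mark CACGTG, which reads the same on both strands. Loxl1 is not in that set.
Tgfb2, chr1:186705940-186706239, minus strand: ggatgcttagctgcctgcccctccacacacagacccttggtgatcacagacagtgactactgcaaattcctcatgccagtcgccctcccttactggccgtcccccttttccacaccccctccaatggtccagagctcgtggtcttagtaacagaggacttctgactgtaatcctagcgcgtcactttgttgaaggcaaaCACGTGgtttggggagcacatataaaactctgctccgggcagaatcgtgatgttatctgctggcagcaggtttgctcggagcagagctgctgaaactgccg
Col4a5, chrX:141475169-141475468, plus strand: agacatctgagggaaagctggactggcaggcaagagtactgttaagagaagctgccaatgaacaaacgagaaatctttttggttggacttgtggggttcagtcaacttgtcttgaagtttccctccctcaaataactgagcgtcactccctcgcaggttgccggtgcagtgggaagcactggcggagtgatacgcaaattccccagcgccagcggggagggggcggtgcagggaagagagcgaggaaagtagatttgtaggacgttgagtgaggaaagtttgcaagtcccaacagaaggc
Col6a1, chr10:76725995-76726294, minus strand: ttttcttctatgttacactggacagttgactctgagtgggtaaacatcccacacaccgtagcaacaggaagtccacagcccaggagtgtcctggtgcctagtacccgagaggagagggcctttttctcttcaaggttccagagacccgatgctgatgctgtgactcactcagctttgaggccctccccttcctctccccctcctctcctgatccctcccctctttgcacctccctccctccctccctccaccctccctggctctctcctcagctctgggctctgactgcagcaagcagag
Lamb3, chr1:193301744-193302043, plus strand: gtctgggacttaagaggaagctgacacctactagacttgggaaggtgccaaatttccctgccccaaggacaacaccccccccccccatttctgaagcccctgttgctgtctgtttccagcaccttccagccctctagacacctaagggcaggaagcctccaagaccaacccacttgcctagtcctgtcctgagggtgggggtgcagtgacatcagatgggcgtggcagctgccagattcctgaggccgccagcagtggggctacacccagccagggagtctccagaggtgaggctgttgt
The Tgfb2 window holds 1 copy, 51 to 46 bases upstream of the start. The Col4a5 and Col6a1 windows hold none, and neither do both Lamb3 windows, of which the first is printed. CACGTG was present in 7.15% of all 32851 windows, in 5.32% of the 94 windows of matrix genes and in 6.56% of the 61 windows whose gene had a tested probe. Adamts17, Fbln1 and Mmp7 were the other matrix genes with a copy. These matches describe letters in a window and are not evidence of binding.

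Basement membrane collagens were higher in CCM hearts in 7 of 8 probes, with a median of 0.19, and 1 of them passed. Col4a5, the alpha 5 chain of type IV collagen, read 10.98, 10.79, 10.81, 10.78 and 10.76 in WT hearts on the normal diet and 10.75, 11.02, 10.78 and 10.79 on the high fat diet (probe ILMN_2437848). The CCM hearts read 11.33, 11.17, 11.21, 10.96 and 11.25, then 11.49, 11.18, 11.41, 11.11 and 10.89. A single WT heart in each diet group stood apart above its group, at 10.98 and 11.02, and these were the WT values that overlapped with CCM. The difference was 0.37 ± 0.08 (SE, adjusted p = 0.00621 by limma), close to the same on the normal diet (0.36) and on the high fat diet (0.38). The call was kept without any single animal, but was lost with arrays shifted to equal medians. The dimmer Col4a5 probe, ILMN_2734754, showed 0.43 ± 0.13 (SE, adjusted p = 0.0718). Col4a2, which forms the most common type IV trimer with Col4a1, gave 0.25 ± 0.10 (SE, adjusted p = 0.235).

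Laminins, the other large component of basement membranes, had 9 of 13 probes higher in CCM with a median of 0.05, and 1 probe passed. Lamb3, a laminin beta chain known mainly from epithelial basement membranes, was the matrix gene with the lowest genotype difference. It read 9.12, 8.97, 9.17, 9.81 and 8.63 in WT hearts on the normal diet and 9.29, 9.03, 9.20 and 9.62 on the high fat diet. CCM hearts read 8.40, 8.53, 8.93, 9.12 and 8.97 on the normal diet and 8.07, 8.67, 8.26, 8.67 and 8.59 on the high fat diet. The groups overlapped on the normal diet, and on the high fat diet every CCM heart lay below every WT heart. Averaged over the diets Lamb3 fell by 0.59 ± 0.14 (SE, adjusted p = 0.0176 by limma), and no single animal ended that call. The call was lost with arrays shifted to equal medians and without the 3 arrays of lowest mean signal. Lamc1, the gamma 1 chain and the brightest laminin probe, gave 0.08 ± 0.07 (SE, adjusted p = 0.802).

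Fibrillar collagens, the load-bearing fibres, were higher in CCM hearts in all 8 probes, with a median of 0.15 and a range of 0.06 to 0.37, but none passed. Col3a1, the chain of type III collagen, gave 0.37 ± 0.17 (SE, adjusted p = 0.358). Col1a1 gave 0.35 ± 0.19 (SE, adjusted p = 0.484), and Col1a2, its partner in type I collagen, 0.10 ± 0.13 (adjusted p = 0.892). The Col1a2 probe was dim and detected on 12 arrays. The 95% intervals reached 0.74 for Col3a1 and 0.75 for Col1a1, so differences up to that size lay within the error for these genes.

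Among the other collagens 14 of 16 probes were higher in CCM, with a median of 0.18, and 1 passed. Col6a1 encodes a chain of type VI collagen, which forms beaded filaments around cells. Its probe ILMN_1259388 read 10.21, 9.90, 10.26, 10.14 and 10.32 in WT hearts on the normal diet and 10.09, 10.41, 10.43 and 10.18 on the high fat diet. CCM hearts read 10.34, 10.64, 10.47, 10.37 and 10.47, then 10.44, 10.47, 10.69, 10.81 and 10.42. The genotypes did not overlap on the normal diet, and on the high fat diet they met at 10.42 to 10.43. The difference was 0.29 ± 0.08 (SE, adjusted p = 0.0329 by limma). Of the 3 tested Col6a1 probes this was the 1 called, and their differences ran from 0.14 to 0.29. The brightest Col6a1 probe, ILMN_2768087, did not pass, also when only the brightest probe of each gene was tested. The other chains of the trimer gave 0.25 ± 0.08 for Col6a3 (adjusted p = 0.100) and 0.20 ± 0.09 for the named Col6a2 probe (adjusted p = 0.359). Without CCM high fat replicates 3 or 4, CCM normal replicates 2 or 3, WT high fat replicates 1 or 4, or WT normal replicates 2 or 4 the Col6a1 call was lost, with a highest adjusted p of 0.0828. Col8a1, a short-chain collagen of vessel walls, lay just past the threshold at 0.49 ± 0.14 (probe ILMN_2503553, adjusted p = 0.0501), with 0.52 ± 0.19 on its other probe (ILMN_2693495, adjusted p = 0.180).

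Of the 5 lysyl oxidases Lox and Loxl1 had a tested probe. Loxl1, which cross-links elastic fibres, read 10.56, 10.81, 11.09, 10.92 and 10.90 in WT hearts on the normal diet and 10.89, 11.08, 11.07 and 10.88 on the high fat diet. CCM hearts read 11.44, 11.21, 11.40, 11.33 and 10.85, then 11.09, 11.12, 11.33, 11.48 and 11.19. One CCM heart on the normal diet, at 10.85, lay among the WT hearts, and the other 9 were at 11.09 or more, the highest WT value. Loxl1 was higher by 0.33 ± 0.09 (SE, adjusted p = 0.0371 by limma), whereas Lox gave -0.05 ± 0.11 (adjusted p = 0.949). The Loxl1 call was lost without any one of 14 animals, up to an adjusted p of 0.0850 without WT high fat replicate 4. It was kept without CCM high fat replicates 1 and 2, CCM normal replicate 5, WT high fat replicate 2 and WT normal replicate 3.

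Among the 116 probes, none of the matricellular proteins (Ctgf, Postn, Sparc and Sparcl1), of the proteoglycans Bgn, Dcn and Lum or of the fibrillin, fibulin and fibronectin genes passed. Ctgf, now Ccn2, a target of TGF-beta signalling, was the largest among them at 0.41 ± 0.13 (SE, adjusted p = 0.110). Its WT hearts ran from 11.67 to 12.64 and its CCM hearts from 11.85 to 12.94. The matricellular protein Postn gave 0.03 ± 0.17 (adjusted p = 0.989), and fibronectin, Fn1, gave 0.02 ± 0.20 (adjusted p = 0.995). For Sparc the difference was 0.21 ± 0.21 (adjusted p = 0.837). Dcn, a collagen-binding proteoglycan and the brightest matrix probe of its kind at 14.07 to 14.59, gave 0.01 ± 0.07 (ILMN_2747959, 95% interval -0.14 to 0.16).

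No probe passed among the enzymes that cut the matrix, the ADAMTS-like proteins or the TIMPs. Matrix metalloproteinases were higher in 9 of 12 probes with a median of 0.11. Mmp2, the abundant gelatinase A, gave 0.11 ± 0.11 (adjusted p = 0.837). Of the 22 ADAMTS and ADAMTS-like probes 10 were higher and 12 lower, with a median of -0.02. Adamtsl2 gave 0.58 ± 0.20 (adjusted p = 0.127) and Adamtsl4 -0.26 ± 0.07 (adjusted p = 0.0566), and both encode secreted proteins that bind fibrillin microfibrils. TIMPs were lower in 5 of 6 probes with a median of -0.07, with Timp3, the matrix-bound inhibitor, at -0.25 ± 0.10 (adjusted p = 0.202). The signs of all the role medians given for this contrast were the same with arrays shifted to equal medians, without background correction and with the authors' normalized values.

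**Figure D2:**
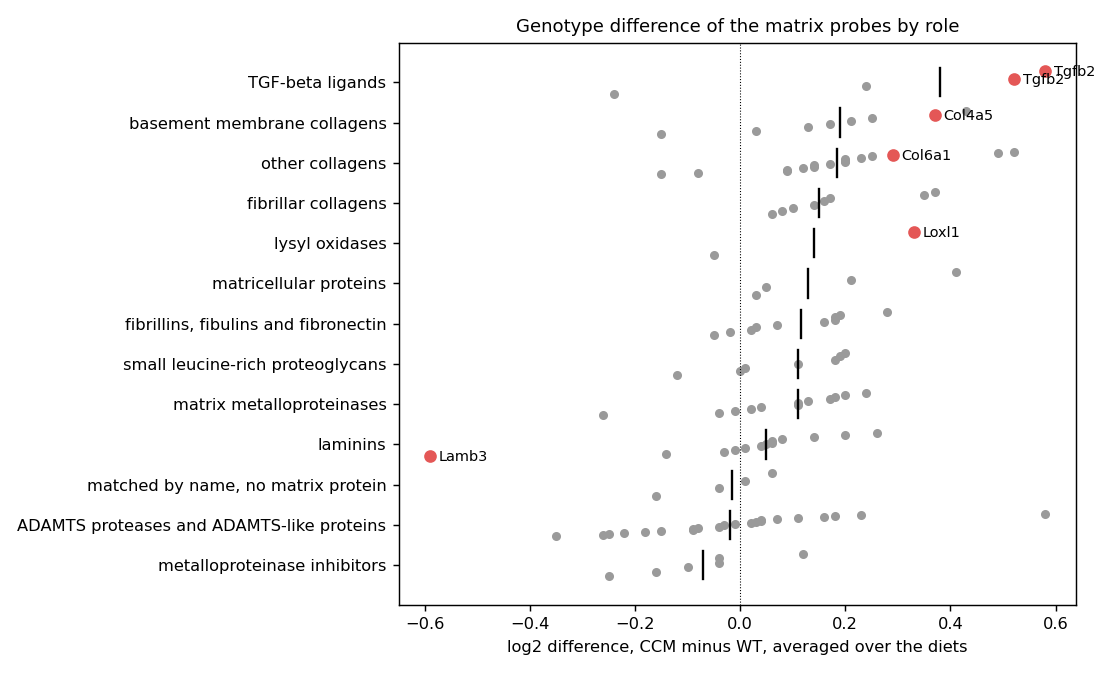
Genotype difference (log2, CCM minus WT, averaged over the diets) of the 116 tested matrix probes, 1 point each, grouped by role, with a bar at each role's median and the 6 called probes in red. All 8 fibrillar collagen probes lie right of 0, and ADAMTS probes lie on both sides of it.

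On each diet alone fewer matrix probes passed. On the normal diet none of 116 was called (limma, beside 1.45% of all probes), and 13 had an unadjusted p under 0.05. The smallest p belonged to Tgfb2 (ILMN_1241099), at 0.57 ± 0.15 (adjusted p = 0.0783). Fbn1, the main microfibril protein, read 5.83 to 6.12 in WT and 6.15 to 6.69 in CCM hearts, a gap without overlap, at 0.37 ± 0.12 (adjusted p = 0.185). Leaving out 1 animal gave a call for Tgfb2 (adjusted p = 0.0301 once CCM high fat replicate 3 was dropped) or for Loxl1 (adjusted p = 0.0244 once CCM normal replicate 5 was dropped), and otherwise 0.

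On the high fat diet Lamb3 was called and fell by 0.83 ± 0.20 (SE, adjusted p = 0.0447 by limma). That is 1 of 116 matrix probes, or 0.862%, beside 1.59% of all probes, and beside 0.902% for lower calls. The Lamb3 call was lost without any one of 14 animals, among them every animal on the high fat diet, with adjusted p between 0.052 and 0.186. It was kept without CCM normal replicates 1, 4 and 5 and WT normal replicates 4 and 5. The difference stayed between -0.92 and -0.72 in these fits. Other small p were those of the Col4a5 probes (0.38, adjusted p = 0.122, and 0.59, adjusted p = 0.181) and of Adamtsl4 (-0.35, adjusted p = 0.153). The median over all matrix probes was 0.08 on this diet, and 0.00 with 58 of 116 positive when arrays were shifted to equal medians.

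The WT and CCM animals of one diet are not those of the other, so the genotype difference was measured on separate animals. Across the 116 probes both differences had the same sign in 71 (61.2%), near the 59.5% of all 19840 probes. Pearson's r across probes was 0.473 for the matrix and 0.579 for all probes, and Spearman's rho 0.385 and 0.309. Among the 74 matrix probes detected on every array 55 had the same sign (74.3%). The share over all probes detected on every array was not computed, and the 59.5% also covers dimmer probes. Probes are not independent replicates, and these values are a description.

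**Figure D3:**
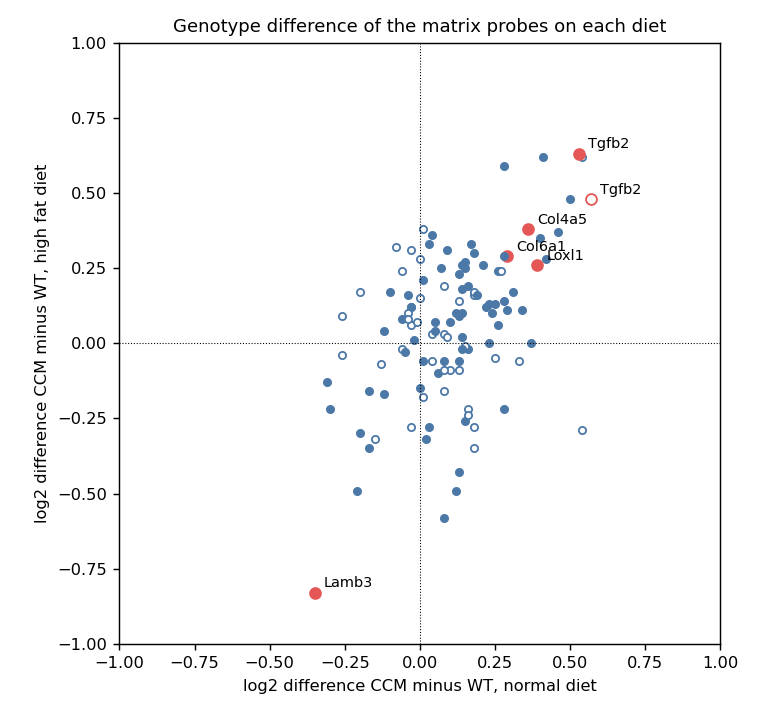
Genotype difference (log2, CCM minus WT) of each tested matrix probe on the normal diet (x axis) and on the high fat diet (y axis), measured in separate animals. Filled points were detected on all 19 arrays, open points on fewer, and red points are the called probes. Lamb3 lies at the lower left and the other called probes at the upper right. The red probes were called on the average of both plotted differences, so their place follows largely from that choice.

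The next question was what the high fat diet did to the matrix genes. None of 116 probes was called over both genotypes (limma, beside 0.237% of all probes), and 12 had an unadjusted p under 0.05, or 10.3% against 7.89% of all. None was called in WT hearts (beside 0.0252%, with 7 probes at an unadjusted p under 0.05) or in CCM hearts (beside 0.0151%, with 11). Differences were mostly positive but small: 85 of 116 probes were higher on the high fat diet with a median of 0.08, while 49.9% of all probes were. The median was 0.11 in WT and 0.07 in CCM hearts. It was 0.03 in WT without WT high fat replicate 2, and over fits without 1 animal it ran from 0.04 to 0.13 in CCM. With arrays shifted to equal medians it was 0.19 in WT and 0.03 in CCM. The genotype and diet comparisons share animals, so their sign counts are not independent of each other.

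Lum encodes lumican, a proteoglycan that spaces collagen fibrils, and had the smallest p for diet. It read 11.26, 10.77, 11.44, 10.92 and 10.81 in WT and 10.72, 11.31, 11.08, 11.25 and 11.47 in CCM hearts on the normal diet. On the high fat diet it read 11.10, 11.70, 11.61 and 11.15 in WT hearts, and 11.65, 11.64, 11.67, 11.65 and 11.48 in CCM hearts. All 5 CCM hearts on the high fat diet were above all 5 on the normal diet, and the WT groups overlapped. The difference over both genotypes was 0.40 ± 0.11 (SE, adjusted p = 0.286).

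Col5a2, a chain of the type V collagen that starts fibrils, gave 0.26 ± 0.08 (adjusted p = 0.381), on a dim probe detected on 13 arrays. Col6a2 gave 0.25 ± 0.09 (adjusted p = 0.538), and Adamtsl5 gave -0.24 ± 0.08 (adjusted p = 0.481). Small leucine-rich proteoglycans had the highest role median for diet, 0.33 over 7 probes of 3 genes, with 5 probes positive. Their probes disagreed within a gene: for Dcn the bright probe gave -0.05 ± 0.07 and a dimmer one (ILMN_2604695) 0.47 ± 0.24 (adjusted p = 0.831 and 0.624). Col1a1 gave 0.41 ± 0.19 (adjusted p = 0.624) and Postn 0.03 ± 0.17 (adjusted p = 0.974). Of 23 matrix genes with more than 1 tested probe, all probes of 15 shared a sign for diet and those of 17 for genotype.

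**Figure D4:**
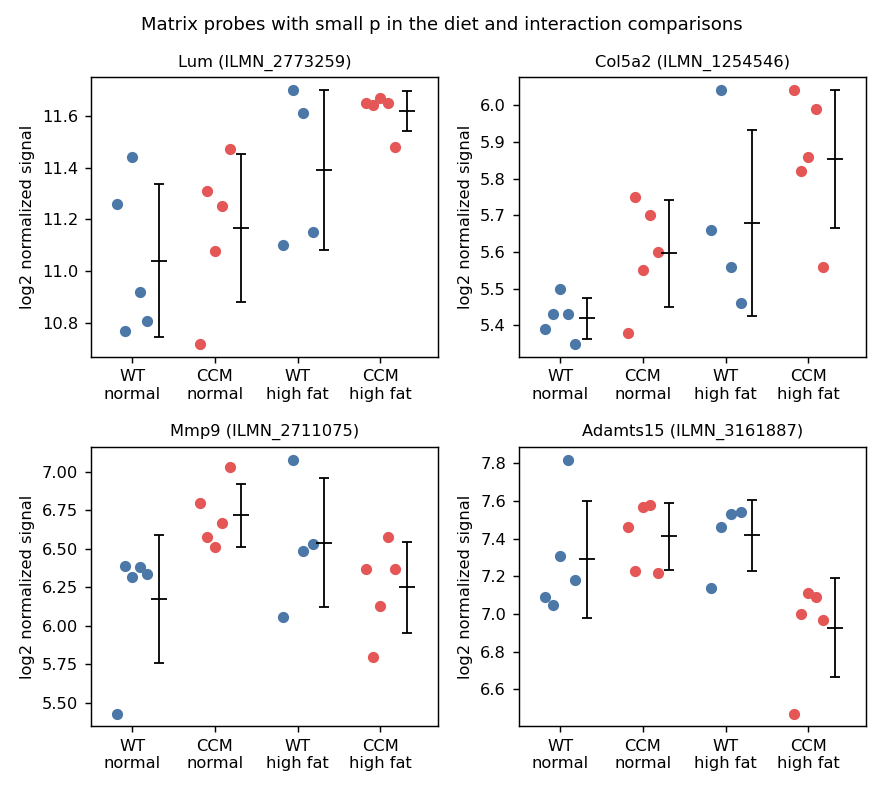
Log2 normalized signal of 4 matrix probes with small p for diet (Lum, Col5a2) and for the diet by genotype interaction (Mmp9, Adamts15), 1 point per animal, with bars for the group mean and SD. None passed adjustment. The group mean of CCM hearts on the high fat diet is the highest for Lum and the lowest for Adamts15.

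Whether diet acted differently in the genotypes was tested by the interaction, the diet difference in CCM minus that in WT hearts. No matrix probe passed, and none of all 19840 did (limma, 0.0% called, with 511 at an unadjusted p under 0.05). Unadjusted p were under 0.05 for 3 matrix probes (2.59%), beside 2.58% of all. These were Mmp9, Adamts15 and Fbn1, all negative. Mmp9, gelatinase B, read 5.43, 6.39, 6.32, 6.38 and 6.34 in WT and 6.80, 6.58, 6.51, 6.67 and 7.03 in CCM hearts on the normal diet. On the high fat diet it read 6.06, 7.08, 6.49 and 6.53 in WT and 6.37, 5.80, 6.13, 6.58 and 6.37 in CCM hearts. CCM was above WT without overlap on the normal diet, and on the high fat diet the genotypes overlapped. The interaction was -0.83 ± 0.29 (SE, unadjusted p = 0.0103), -0.61 ± 0.22 for Adamts15 (unadjusted p = 0.0115), which cleaves versican, and -0.37 ± 0.17 for Fbn1 (unadjusted p = 0.0454).

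The animals' numbers in the labels run from 4 to 40. They were cut at 20 for this report, into a set under 20 (10 animals) and a set over 20 (9 animals). Both sets hold animals of all 4 groups. The labels mark no break at 20 and name no cohort, cage or date, so the sets are not a known batch. Probes of some of the main matrix genes differed between them within groups. Over 20 minus under 20, Sparc differed by -0.73, Col3a1 (ILMN_1258629) by -0.59 and Adamts1 (ILMN_1230129) by -0.71. Tgfb1 differed by 0.61, Col1a1 by 0.57 and Bgn by 0.54. The other tested probes of Col3a1 (ILMN_2683958, 0.14) and Adamts1 (ILMN_2761082, 0.0) did not show this. The brighter Col3a1 probe, ILMN_1258629, read 9.79 to 10.77 in animals under 20 and 9.45 to 10.03 in those over 20. Of the 116 probes 9 differed by over 0.5 (7.76%), beside 4.27% of all probes. For that Col3a1 probe and for Col1a1 the difference between the sets was larger than that between the genotypes.

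With a block for the sets, 11 of 116 matrix probes were called for genotype over both diets (9.48%, beside 5.26% of all probes in that fit). They held the 6 above, and also Adamtsl2 (0.66 ± 0.16, adjusted p = 0.0236), Adamtsl4 (-0.24 ± 0.07, adjusted p = 0.0466), both proteins of microfibrils, the dimmer Col4a5 probe (0.47 ± 0.12, adjusted p = 0.0244), Col6a3 (0.28 ± 0.07, adjusted p = 0.0202) and Col8a1 (0.42 ± 0.09, adjusted p = 0.00536). In animals under 20 alone 2 probes were called, both of Col8a1 (1.72%, beside 1.23% of all), and in those over 20 alone none (limma, beside 0.872% of all, with 13 at an unadjusted p under 0.05). Within the sets the differences of the 6 probes kept their direction: Col4a5 showed 0.42 and 0.27, the dim Tgfb2 probe 0.57 and 0.51 and the bright one 0.70 and 0.44. Lamb3 showed -0.63 and -0.47, Col6a1 0.36 and 0.25, and Loxl1 0.43 and 0.24, under 20 first. The 6 probes were picked by their calls on these same animals, so a shared direction follows largely from that choice and is no separate support. None of the 6 was called within either set alone.

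**Figure D5:**
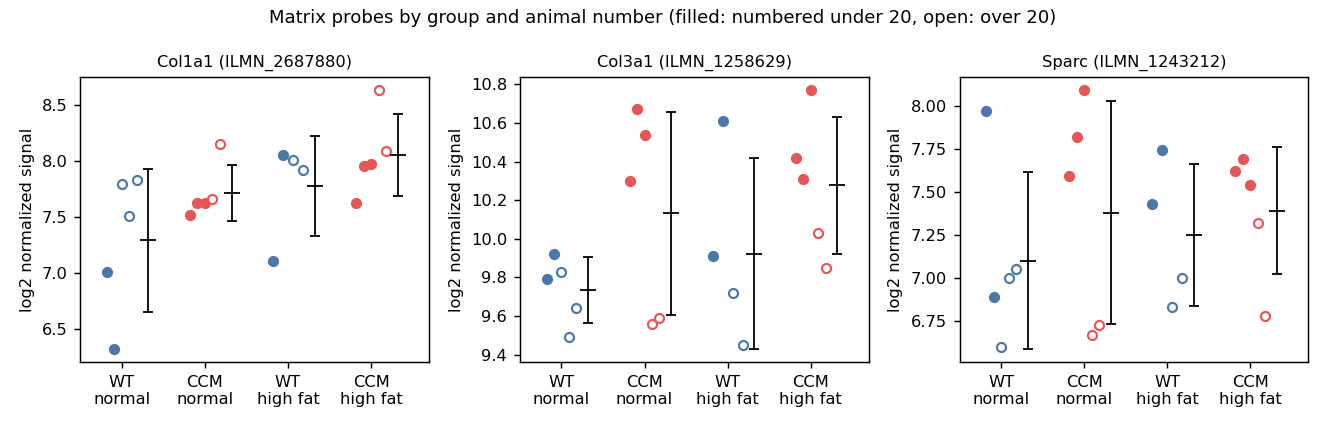
Log2 normalized signal of Col1a1, Col3a1 and Sparc by group, filled for animals numbered under 20 and open for those over 20, with bars for the group mean and SD. In every group the open points of Sparc average below the filled points, and those of Col1a1 above them.

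Genes whose products assemble or bind were set against each other over the 19 animals, as deviations from group means, in 5 pairs (permutation tests, adjusted over the 5). The brightest tested probe stood for each gene, which for Col6a1 is not the called probe. Col6a1 (ILMN_2768087) and Col6a2 (ILMN_1216661), neighbours on chromosome 10, moved together (Pearson's r 0.84, adjusted p = 0.0001, and Spearman's rho 0.79, adjusted p = 0.00085), also without the 2 animals farthest out (0.77). Within the sets their r was 0.81 and 0.72, under 20 first, with permutation p of 0.0355 and 0.146 adjusted over 10 relations. Col3a1 and Sparc, a collagen-binding protein, gave r 0.73 (adjusted p = 0.00105) and rho 0.73, but 0.17 and 0.45 within the sets, where neither passed. Col1a1 and Col3a1 gave r -0.28 (adjusted p = 0.390) and rho -0.38 over all animals, and 0.64 and 0.63 within the sets (permutation p 0.151 and 0.180, adjusted over 10). Col1a1 and Col1a2 gave r -0.25 (adjusted p = 0.390), and Col4a1 and Col4a2 0.14 (adjusted p = 0.576). That last value depended on the scaling and the animals, at 0.57 with arrays shifted to equal medians and 0.33 without the 2 animals farthest out. The pairs share the arrays and their normalization.

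Each animal's matrix level was summarised as the median deviation of its 116 probes from their means. It averaged -0.09 ± 0.11 (SD, n = 5) in WT hearts on the normal diet, with a range of -0.26 to 0.04, and 0.01 ± 0.06 (SD, n = 5) in CCM hearts. On the high fat diet it averaged -0.01 ± 0.12 (SD, n = 4) in WT and 0.06 ± 0.07 (SD, n = 5) in CCM hearts. The lowest animal of all was WT normal replicate 2, with 21 of 116 probes above their mean, and the highest CCM high fat replicate 4, with 84. The groups overlapped.

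Other genes of the same pathways were counted from 5 further lists. Of 38 probes for other matrix structural genes, 1 rose and 2 fell with genotype over both diets, or 7.89% beside the 4.15% of all probes. Ccn4 (Wisp1 in the file), a matricellular protein of the Ctgf family, read 5.96, 6.59, 7.33, 7.59 and 6.12 in WT hearts on the normal diet and 5.95, 7.15, 6.81 and 7.39 on the high fat diet. CCM hearts read 5.35, 5.07, 5.28, 5.83 and 5.11, then 4.81, 5.15, 4.96, 5.16 and 5.18. Every CCM heart was below every WT heart. Ccn4 was detected in all WT hearts but in 1 CCM heart on the normal diet and none on the high fat diet, where it was at least 2.50-fold lower (adjusted p = 0.00268). On the normal diet the difference was -1.39 ± 0.29 (SE, adjusted p = 0.0136).

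Ccn1 (Cyr61 in the file), of the same family, rose by 0.45 ± 0.12 over both diets (adjusted p = 0.0476), with 0.33 on its other probe (adjusted p = 0.492). The proteoglycan Ogn fell on its dimmer probe, ILMN_2718378, by 0.85 ± 0.18 (adjusted p = 0.00877), while its brighter probe ILMN_2740622 gave 0.15 ± 0.12 (adjusted p = 0.750). In the matrix receptor list 1 of 30 probes rose (3.33%, beside 4.15%), Itga11, a subunit of a collagen-binding integrin, by 0.29 ± 0.08 (adjusted p = 0.0435). In the list of TGF-beta receptors, storage and signal proteins 1 of 25 fell (4.0%, beside 4.15%): Tgfbr3, the co-receptor that presents TGF-beta 2, at -0.30 ± 0.08 (ILMN_1244839, adjusted p = 0.0365). A dimmer Tgfbr3 probe gave -0.04 ± 0.16 (ILMN_1241609). None of 24 probes for collagen processing enzymes and none of 17 for other matrix proteases and inhibitors passed, with 1 and 3 at an unadjusted p under 0.05. List medians were 0.09, 0.04 and 0.01 for the first 3 lists, 0.01 for collagen processing and near 0 for the other proteases. None of these lists held a probe called for diet over both genotypes or for the interaction (limma), with 0 to 3 probes per list at an unadjusted p under 0.05.

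Markers of the cells that make matrix were set beside these results. None of the 7 fibroblast marker probes was called for genotype over both diets (limma, median 0.01, and 0 at an unadjusted p under 0.05), and Tcf21 had no tested probe. Their summed signal ran from 3759 to 6008 in WT and from 4329 to 5068 in CCM hearts on the normal diet, and from 4343 to 5255 and from 4534 to 5263 on the high fat diet. Endothelial markers had 0 of 9 probes called and a median of -0.03, and macrophage markers 0 of 6 and -0.02, also with 0 at an unadjusted p under 0.05.

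Of 7 smooth muscle and pericyte probes 2 fell over both diets, beside 2.17% of all probes. Both were of 1 gene, Acta2, smooth muscle actin, at -0.49 ± 0.12 (ILMN_2693895, adjusted p = 0.0200 by limma) and -0.63 ± 0.17 (ILMN_2744825, adjusted p = 0.0363). The list median was -0.12 over both diets, -0.02 on the normal diet and -0.44 on the high fat diet. That list's summed signal, which includes Acta2, was 14144 to 21230 in WT and 11212 to 16693 in CCM hearts on the normal diet. On the high fat diet the sum was 15327 to 21404 in WT and 11916 to 14452 in CCM hearts, without overlap. Erythroid markers summed to 69908 to 76774 in WT and 44658 to 63171 in CCM hearts on the normal diet, without overlap. They overlapped on the high fat diet (73402 to 79295 and 61890 to 85128). None of their 8 probes was called for genotype over both diets or on either diet (limma). At an unadjusted p under 0.05 stood 4 over both diets, all 8 on the normal diet (median -0.63) and 0 on the high fat diet (median -0.08). For diet in CCM hearts 6 of the 8 did (median 0.66), and none was called. Adipocyte markers had 3 tested probes, none called, and Lep and Plin1 had none tested. Their sum was 337 to 520 in WT and 431 to 2132 in CCM hearts on the normal diet, and 391 to 1094 in WT and 268 to 903 in CCM hearts on the high fat diet. Their median diet difference was 0.44 in WT and -1.1 in CCM hearts. The part of smooth muscle, blood and fat cells in the matrix differences was not tested.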

How the data were processed

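Heart RNA of 19 mice was read on Illumina bead arrays, 1 per animal. The authors deposited average bead intensities that were not normalized between arrays, and beside each intensity a detection p-value, per the file headers. The submitters' processing notes name BeadStudio 3. The authors' normalized intensities (method: not given in the sources used here) served as an alternative. Groups came from the labels. Every array is a separate animal, so the spread joins animal and array variation.

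In R 4.3.3, neqc of limma 3.58.1 corrected the signals (offset 16, background inferred from the detection p-values), quantile normalized them and took log2. Probes with a detection p under 0.05 on at least 4 of 19 arrays were kept (19840 of 46643). A mean per group was fitted to each probe by lmFit, and eBayes added 3.67 prior to 15 residual degrees of freedom. The 7 contrasts were tested two-sided and adjusted by Benjamini-Hochberg over the 19840 probes, and a probe is called at an adjusted p under 0.05. For a probe detected on no array of its dimmer group, the fold is a lower bound against the higher of its own value and the lowest detected signal. Correlations used 100000 permutations (scipy). The number of arrays limits the precision. On simulated data for the genotype contrast on the normal diet, 37% of probes changed by 0.5 log2 and 85% of those changed by 1 log2 were recovered among 19840.

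The members and gene lists were chosen with earlier results of these data known. Named are all probes called, the 4 smallest p of each comparison, the brightest probe and the widest range of each role, and 20 well-known matrix genes, 45 probes in all. Probes named beyond these (Col8a1 ILMN_2503553, Adamts1, the second probe of a gene, and those of the further lists) were chosen after their values were seen. Symbols matched a RefSeq table (GRCm38.p6) by accession for 182 of the 234 probes, by symbol for 51 and by an older symbol for 1. Other background corrections, scalings, filters, blocks for animal number and fits without single animals were the alternatives. A further 2 probes, whose names differ from the rule in letter case alone, were left out.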

Additional observations from a re-analysis of the deposited data

Results flagged for a closer look

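A value is listed here when 1 animal stood apart from the rest of its group by Dixon's criterion. Among the 45 named matrix probes in 4 groups, 13 of 180 such sets held 1, where chance alone gives about 1 in 20. WT high fat replicate 1 stood low in 3 of them: Col1a1 at 7.11 (others 7.92 to 8.05), Mmp2 at 11.63 (others 12.02 to 12.07) and Timp2 at 10.57 (others 11.52 to 11.57). WT normal replicate 1 stood low for Lamc1 at 11.57 (others 11.94 to 12.04) and Mmp9 at 5.43 (others 6.32 to 6.39), and high for Col4a5 (ILMN_2437848) at 10.98 (others 10.76 to 10.81). WT high fat replicate 2 was high for the same Col4a5 probe at 11.02 (others 10.75 to 10.79). CCM high fat replicate 3 was high for both Tgfb2 probes, at 10.41 (ILMN_1225196, others 9.83 to 9.99) and 6.31 (ILMN_1241099, others 5.53 to 5.73). In CCM hearts on the normal diet, Col1a1 was 8.15 in replicate 5 (others 7.52 to 7.66) and Timp3 12.23 in replicate 4 (others 11.53 to 11.72). On the high fat diet, Adamts15 was 6.47 in CCM replicate 1 (others 6.97 to 7.11) and Lum 11.48 in CCM replicate 5 (others 11.64 to 11.67). The groups' genotype calls without these animals are given with the other fits that leave out an animal. No matrix probe passed the test of a difference between the genotypes in their response to diet.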

How the results depend on the processing

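No call reversed under any alternative. Medians by role turned sign with arrays shifted to equal medians in 3 roles for genotype on the high fat diet (laminins 0.02 to -0.09, fibrillins, fibulins and fibronectin 0.06 to -0.02, metalloproteinases 0.04 to -0.04), 2 for the interaction (other collagens 0.07 to -0.02, proteoglycans 0.03 to -0.16), 1 for diet in CCM (metalloproteinases 0.03 to -0.04) and 0 in the other comparisons. Without 1 animal the matrix median for genotype ran from 0.06 to 0.16 on the normal diet (lowest without WT normal replicate 2) and from 0.05 to 0.14 on the high fat diet (highest without WT high fat replicate 2). The count of matrix probes called for genotype over both diets (6) was 1 with arrays shifted to equal medians, 11 with a block for animal numbers under and over 20, 2 and 0 within the sets under and over 20 alone, and 3 without the 3 arrays of lowest mean signal. The call kept under the shift was that of the dim Tgfb2 probe ILMN_1241099. Those kept without the 3 dim arrays were of Col4a5 (ILMN_2437848), Col6a1 (ILMN_1259388) and the same Tgfb2 probe. The count was 4 to 8 under the other alternatives. The count on the high fat diet (1) was 0 under the shift, without a filter on dim probes, within either set and without the 3 dim arrays. Fits without 1 animal gave 3 to 8 calls for genotype over both diets, with 3 without CCM high fat replicate 3, WT high fat replicate 4 or WT normal replicates 2 or 4, and 0 to 1 on either diet. They gave 0 in the diet and interaction comparisons. With equal medians the calls over all probes split 175 higher to 299 lower against 393 to 430 (genotype over both diets), 37 to 169 against 137 to 179 (genotype on the high fat diet) and 13 to 0 against 40 to 7 (diet), and the median of all probes in the interaction moved to -0.13, that of the matrix probes to -0.17. The matrix median for diet in WT was 0.21 in animals under 20 alone. The cause of these changes was not tested. The fits that leave animals out also hold fewer animals, and the part of that was not tested either. Single probes kept direction and side of the threshold in 289 other fits and lost the call in 27. Single animals were left out for matrix probes, not for the other lists. No paired analysis was possible because the labels give each animal its own number and no number shared between groups.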
